A study of Mus musculus with 4 samples.

Results

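The urea transporters Slc14a1 and Slc14a2 and the aquaporins Aqp1, Aqp2, Aqp3, Aqp4 and Aqp5 were examined in ureters of ΔNp63-cKO and control mouse embryos. Every probe whose gene name in the array files is one of these 7 symbols was taken, which gave 10 probes among the 39429 gene probes of the array, which carry 30010 gene names. The genes were chosen on earlier results of these data, their log2 ratios of cKO over control, so the difference between genotypes is described for them and counts as no independent evidence.

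The study measured total RNA of ureters dissected from NMRI mouse embryos at E15.5. The cKO embryos were Pax2-cre/+; Trp63(dN-flox/dN-flox) and the control embryos Trp63(dN-flox/?), so both genotypes carried a floxed allele, the second control allele was not specified, and cre was listed for the cKO embryos only. Pax2 is known to be expressed in the nephric duct and ureteric bud, from which the ureter epithelium arises. An effect of the cre transgene and an effect of the deletion cannot be told apart. Each of 4 two-colour arrays paired a cKO RNA with a control RNA matched for sex, females in replicates 1 and 2 and males in replicates 3 and 4. The cKO RNA carried the red dye in replicates 1 and 3 and the green dye in replicates 2 and 4. The labels do not say whether an RNA came from 1 embryo or from several, so the spread between arrays may be partly technical. Ureters hold epithelium, smooth muscle, stroma, vessels and nerves, and in such bulk RNA fewer cells of a type and less RNA per cell cannot be told apart.

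Urea transporters and aquaporins are membrane channels that let urea and water follow their gradients. SLC14A1 (UT-B) is known from red blood cells, vessels of the renal medulla and the urothelium, and SLC14A2 (UT-A) from the collecting duct and thin limbs of the kidney. AQP3 also conducts glycerol and lies in the membranes of urothelial cells, basal keratinocytes and collecting duct principal cells, while ΔNp63 is the Trp63 isoform that marks basal cells of stratified epithelia.

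The share of gene spots well above background was 74.9% to 77.0% for green and 71.8% to 73.2% for red, and 0 gene spots were saturated. The brightest probe of Trp63, the targeted gene, had log2 ratios of cKO over control of -1.39, -1.18, -1.30 and -1.62 in replicates 1 to 4. The other probes of Trp63 had mean log2 ratios of -1.26 ± 0.36, -0.81 ± 0.34 and -0.02 ± 0.16 (SD, n = 4 arrays), and the labels do not say which of them lie in the floxed part.

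Of the 10 probes, 8 probes of 6 genes passed the intensity filter, and both Aqp5 probes did not. In limma's fit across all 28611 kept probes, with Benjamini-Hochberg adjustment over all of them and a threshold of 0.05 on the adjusted p, 0.58% of probes were called lower and 0.433% higher in cKO ureters. Among the 8 kept probes, 1 was called lower, that of Slc14a1, and 0 were called higher. The log2 ratio was below 0 on all 4 arrays for 3 of the 8, those of Slc14a1 and both Aqp4 probes, against 7.38% of all kept probes, and above 0 on all 4 for 1, that of Aqp3, against 7.91%. The levels of the genotypes did not overlap for Slc14a1, lower in cKO (3.12% of all kept probes), and for Aqp3, higher in cKO (2.92%). The median log2 ratio over the 8 probes was -0.11, beside 0.00214 over all kept probes. Since the choice of genes used this contrast, nothing is read from these shares.

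**Figure D1:**
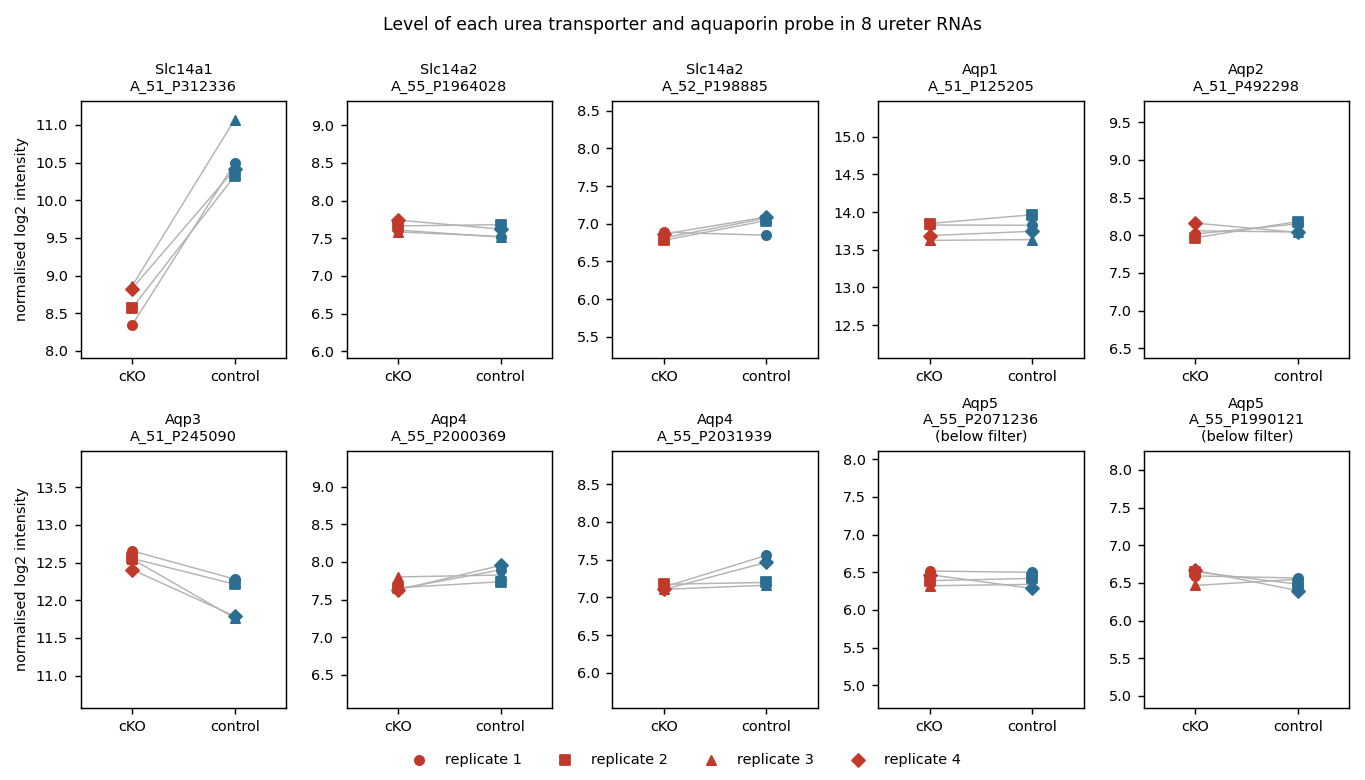
Normalised log2 intensity (vertical axis) of each of the 10 probes in the cKO RNAs (red) and control RNAs (blue), where the symbol gives the replicate and a grey line joins the 2 RNAs of an array. Slc14a1 lies lower in all 4 cKO RNAs, at 8.34 to 8.86, than in all 4 control RNAs, at 10.32 to 11.07, and Aqp3 lies higher in all 4 cKO RNAs, at 12.41 to 12.66.

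**Figure D2:**
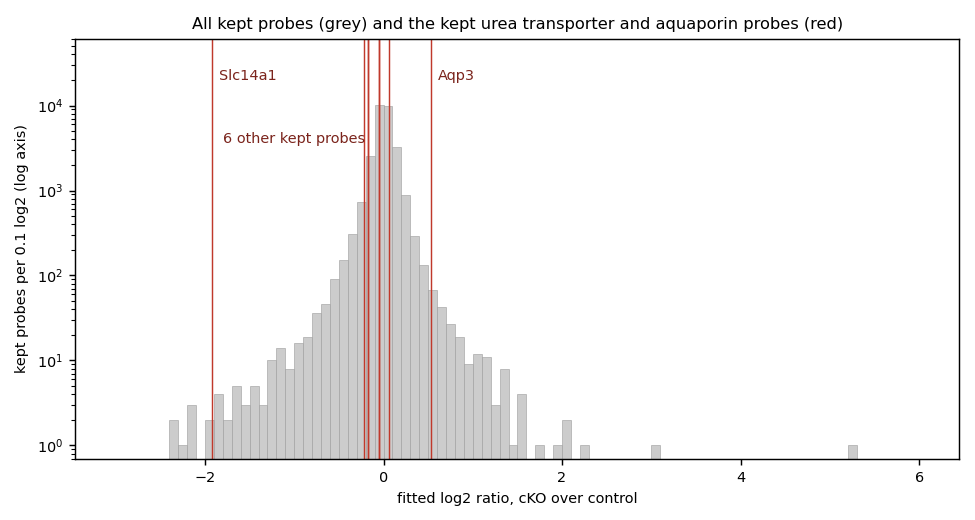
Number of kept probes per bin of the fitted log2 ratio of cKO over control (log vertical axis), with a red line for each of the 8 kept urea transporter and aquaporin probes. Slc14a1 lies in the thin lower tail at -1.92, Aqp3 lies at 0.53, and the other 6 lie between -0.22 and 0.06.

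Slc14a1 was the member with the widest difference between genotypes. Its probe (A_51_P312336, mm9, chr18:78298526-78298585, minus strand) had normalised log2 intensities of 8.34, 8.57, 8.86 and 8.83 in the cKO RNAs of replicates 1 to 4, against 10.49, 10.32, 11.07 and 10.41 in the control RNAs. Every cKO value lay below every control value, and the groups did not overlap. The log2 ratios were -2.15, -1.75, -2.21 and -1.58 on the 4 arrays, averaging -1.92 ± 0.30 (SD, n = 4), which is 3.79-fold lower in cKO ureters, with a 95% interval of the fitted value from -2.11 to -1.74. All 16 of 16 single spots were lower for the cKO RNA. The signal stayed well above background in the cKO RNAs, with signals of 309 to 504 intensity units, against 1255 to 1935 in the control RNAs, so a lower but measurable level remained in cKO ureters. Its fitted ratio ranked 8 from the lowest among all kept probes. With the submitters' own value table in the same fit, the log2 ratio was -2.14 and the probe was not called, while that fit called 1 of all kept probes.

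Slc14a2, the neighbouring gene of the same family, was measured by probes for each of 2 transcript variants. The probe of variant 2 (A_55_P1964028, mm9, chr18:78379981-78380040) had log2 intensities of 7.61, 7.66, 7.59 and 7.74 in the cKO RNAs and 7.52, 7.68, 7.52 and 7.62 in the control RNAs, with a mean log2 ratio of 0.06 ± 0.06 (95% interval -0.12 to 0.24). The probe of variant 1 (A_52_P198885, mm9, chr18:78342911-78342970) had log2 intensities of 6.89, 6.78, 6.81 and 6.86 in the cKO RNAs and 6.85, 7.04, 7.08 and 7.09 in the control RNAs, with a mean log2 ratio of -0.18 ± 0.15 (95% interval -0.38 to 0.02). The genotypes overlapped for both probes, and neither passed the test. The levels of the variant 1 probe lay near the lowest signal that was well above background, 6.49 to 6.70 between RNAs. With the scanner software's processed signals, the log2 ratio of that probe was -0.48, outside its interval above, and it was not called (adjusted p = 0.325, limma). Within each array the log2 ratio of Slc14a1 lay below that of the brighter Slc14a2 probe, that of variant 2, by -2.24, -1.74, -2.27 and -1.70 in replicates 1 to 4. In mm9 the Slc14a2 probes lie 44.3 kb and 81.4 kb from the Slc14a1 probe, and in RefSeq's gene order Slc14a1 and Slc14a2 are next to each other.

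**Figure D3:**
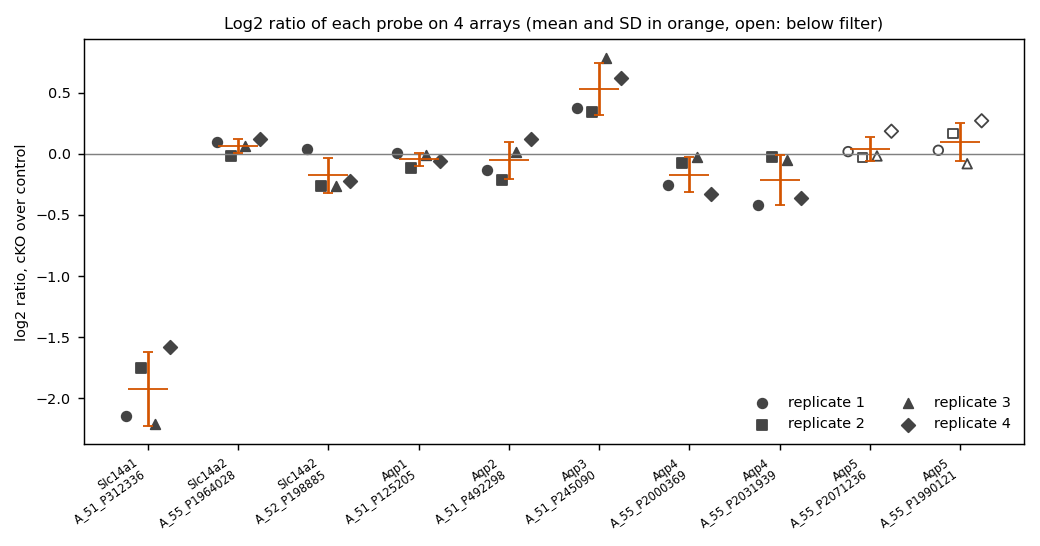
Log2 ratio of cKO over control (vertical axis) of every probe, with a symbol for each of the 4 arrays, the mean ± SD of 4 arrays in orange and open symbols for probes below the intensity filter. Slc14a1 lies between -2.21 and -1.58 and Aqp3 between 0.34 and 0.78, while the ratios of Aqp1 lie between -0.12 and 0.00.

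Aqp3 was higher in cKO ureters on every array but did not pass the test over all probes. Its probe (A_51_P245090, mm9, chr4:41039962-41040021, minus strand) had log2 intensities of 12.66, 12.56, 12.55 and 12.41 in the cKO RNAs, against 12.28, 12.21, 11.76 and 11.79 in the control RNAs. The lowest cKO value lay above the highest control value. The log2 ratios were 0.37, 0.34, 0.78 and 0.62, a mean of 0.53 ± 0.21 (SD, n = 4; 95% interval 0.29 to 0.77), or 1.44-fold, and all 16 of 16 spots were higher for the cKO RNA. The adjusted p in limma's fit was 0.10. The probe was called in 5 of 15 alternative settings, among them without replicate 1 (adjusted p = 0.0187), without replicate 2 (0.00697) and without replicate 4 (0.0213), and without replicate 3 the log2 ratio was 0.43 with an adjusted p of 0.545. The fits without replicates 1, 2 and 4 called 429, 1037 and 1976 of all kept probes, against 290 with all 4 arrays, so calls rose across the array in those fits. The fits without replicate 1, without replicate 3 and with a sex term had an infinite prior degree of freedom beside 1 residual one.

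The 250 bases before the Aqp3 start were read from RefSeq (GRCm38.p6, chr4:41098184-41098433, minus strand), which holds such an entry for 4 of the 7 genes. They are printed 5′ to 3′ because sites known to bind p63 can hold CATG cores. No other form of p63 core was searched for, so an absence of p63 sites cannot be read from these letters. The capitals mark a TATAAA, which begins 29 bases before the start.
Aqp3 promoter: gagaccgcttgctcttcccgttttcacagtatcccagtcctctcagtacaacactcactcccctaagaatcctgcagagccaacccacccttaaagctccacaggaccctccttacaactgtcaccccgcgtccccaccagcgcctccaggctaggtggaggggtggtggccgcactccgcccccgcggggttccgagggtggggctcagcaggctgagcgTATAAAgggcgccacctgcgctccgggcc
On either strand, TATAAA occurs in 12.4% of 32851 promoter windows of this length. The core CATG, which occurs in 53.9% of the windows, and CACGTG, which occurs in 6.02%, were not among these letters of Aqp3. The window of Aqp2 held 2 CATG and 1 CACGTG, that of Aqp5 held 1 CACGTG and that of Aqp1 none of these. The Aqp3 window held 14 CpG and the Aqp5 window 38, which is more than 98.1% of the windows hold.

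Aqp1, the constitutive water channel of proximal tubule, red blood cells and many vessels, showed nearly equal levels. Its probe (A_51_P125205, mm9, chr6:55298480-55298539) had log2 intensities of 13.83, 13.85, 13.62 and 13.69 in the cKO RNAs and 13.83, 13.96, 13.63 and 13.75 in the control RNAs. The mean log2 ratio was -0.05 ± 0.05 (95% interval -0.22 to 0.13), and its sign turned to 0.01 when arrays were centred on the median in place of loess. On each array the Aqp3 ratio exceeded the Aqp1 ratio, by 0.37 to 0.79 log2, with a mean of 0.57 ± 0.19.

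Aqp2, the vasopressin-regulated apical channel of collecting duct principal cells, was measured by 1 probe (A_51_P492298). It had log2 intensities of 8.02, 7.97, 8.06 and 8.16 in the cKO RNAs and 8.15, 8.18, 8.04 and 8.04 in the control RNAs. The groups overlapped, with a mean log2 ratio of -0.05 ± 0.15 (95% interval -0.27 to 0.16). The ratio was below 0 in both female replicates, at -0.13 and -0.21, and above 0 in both male replicates, at 0.02 and 0.12. The Aqp3 ratio exceeded that of Aqp2 by 0.50 to 0.77 log2 on the 4 arrays.

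Aqp5, a channel of glands, lies beside Aqp2 in RefSeq's gene order, and its probes were not kept. The one with more detected spots (A_55_P1990121, mm9, chr15:99425138-99425197) was well above background in 25%, 100%, 0% and 100% of its spots for the cKO RNAs of replicates 1 to 4, against 75%, 0%, 75% and 0% for the control RNAs. The detected RNAs were those in the green channel in each replicate, so no fold is given for Aqp5. The other probe (A_55_P2071236) had at most 50% of its spots above background in any RNA. The levels of both probes, at 6.28 to 6.67, lay at about the lowest signal that was well above background, which ranged from 6.49 to 6.70 between RNAs.

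The probes of the neighbouring Aqp2 and Aqp5 are shown, 5′ to 3′, because their genes have related sequence. The capitals mark a run of 5 bases that both probes hold, the longest length they share, and other shared runs of that length are not marked.
Aqp2 (mm9, chr15:99412578-99413554, plus strand): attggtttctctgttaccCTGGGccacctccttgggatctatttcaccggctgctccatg
Aqp5 (mm9, chr15:99424655-99424714, plus strand): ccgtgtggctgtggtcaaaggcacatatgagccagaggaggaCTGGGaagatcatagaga
The Aqp2 probe has 60 bases and spans 977 bases in mm9, so it crosses an intron. Over all 42 pairs of probes of different genes, 16 to 25 of 60 bases matched at the best placement without gaps. The longest shared run was 9 bases. The pair shown matched at 16 bases, the fewest of any pair, so its marked run is no sign of related sequence. The Aqp2 probe and the other Aqp5 probe matched at 23 bases, with a longest shared run of 6.

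Aqp4, the channel of astrocytes, skeletal muscle and the basolateral side of principal cells, was measured by 2 probes that agreed in sign. The first (A_55_P2000369, mm9, chr18:15551364-15551423) had log2 intensities of 7.64, 7.66, 7.80 and 7.63 in the cKO RNAs and 7.89, 7.74, 7.83 and 7.95 in the control RNAs. The second (A_55_P2031939, mm9, chr18:15547951-15548010) had 7.13, 7.17, 7.11 and 7.10 in the cKO RNAs and 7.56, 7.20, 7.16 and 7.47 in the control RNAs. Their log2 ratios were below 0 on all 4 arrays, with means of -0.17 ± 0.14 and -0.22 ± 0.20, and neither passed the test (adjusted p = 0.832 and 0.769, limma). Of 11 skeletal muscle markers, 2 were called lower. At an unadjusted p under 0.05, 8 were lower, against 4.02% of all kept probes at that unadjusted level. Their summed log2 level was 14.86 to 15.27 for cKO, against 15.25 to 15.47 for control. Here and below, that level is the log2 of a list's summed intensities, weighted to its brightest genes. Of 12 kept collecting duct markers, which include those of principal cells, 5 were higher and 1 lower at an unadjusted p under 0.05. The part of skeletal muscle and of collecting duct cells in the Aqp4 ratio was not tested.

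The effect of genotype was compared between the sexes with a male minus female coefficient, which left 1 residual degree of freedom. The prior degree of freedom of that fit was infinite, so a probe's own spread did not enter its p-value. The difference between the sexes was called for 0 of the 8 probes, against 0.0664% of all kept probes. Of the 8, 0 had an unadjusted p under 0.05, against 0.87% of all kept probes. The Slc14a1 log2 ratio averaged -1.95 in females and -1.90 in males. The Aqp3 ratio averaged 0.36 in females and 0.70 in males, a difference of 0.34. The dye effect was called for 0 of the 8 probes and for 0 of all kept probes, and 1 of the 8, that of Slc14a1, had an unadjusted p under 0.05, at -0.25 for red minus green, against 1.81% of all kept probes.

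Genes of water, urea and glycerol handling were counted in 5 lists, of which 46 genes were kept, and 0 were called lower and 1 higher. That gene was Gk, glycerol kinase, which phosphorylates the glycerol that aquaglyceroporins conduct, at 0.59 ± 0.10 log2 (adjusted p = 0.0356, limma), and it was 1 of 9 kept glycerol genes, whose median log2 ratio was 0.09. Of the glycerol genes 3 were higher and 0 lower at an unadjusted p under 0.05, and without the intensity filter 0 glycerol genes were called. At an unadjusted p under 0.05, 4.02% of all kept probes were lower and 3.53% higher, which the unadjusted counts of the lists are read against. Of the other aquaporins 3 of 7 genes were kept, with 0 called and 0 at an unadjusted p under 0.05, among them Aqp8 at -0.17 ± 0.14 and Aqp11 at 0.12 ± 0.29. In RefSeq's gene order the aquaglyceroporin gene Aqp7 lies next to Aqp3, and its log2 ratio was -0.04 ± 0.07.

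The route from vasopressin to AQP2 held 16 kept genes, of which 0 were called and 3 were higher at an unadjusted p under 0.05. Its receptor gene Avpr2 stood at 0.49 ± 0.16 log2 (adjusted p = 0.0862, limma), and Nedd4l, a ubiquitin ligase of transport proteins, stood at 0.28 ± 0.06. In the list of the tonicity response, 0 of 11 kept genes were called and 2 were higher at an unadjusted p under 0.05, Nfat5, its transcription factor, at 0.54 ± 0.30 and Sgk1 at 0.22 ± 0.13. Of 7 kept urea cycle and arginase genes 0 were called, with 2 lower at an unadjusted p under 0.05, Arg2, which makes urea from arginine, at -0.35 ± 0.28 and Cps1 at -0.23 ± 0.07. The median log2 ratio was 0.06 for the vasopressin route, 0.12 for the tonicity response and -0.07 for the urea cycle.

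**Figure D4:**
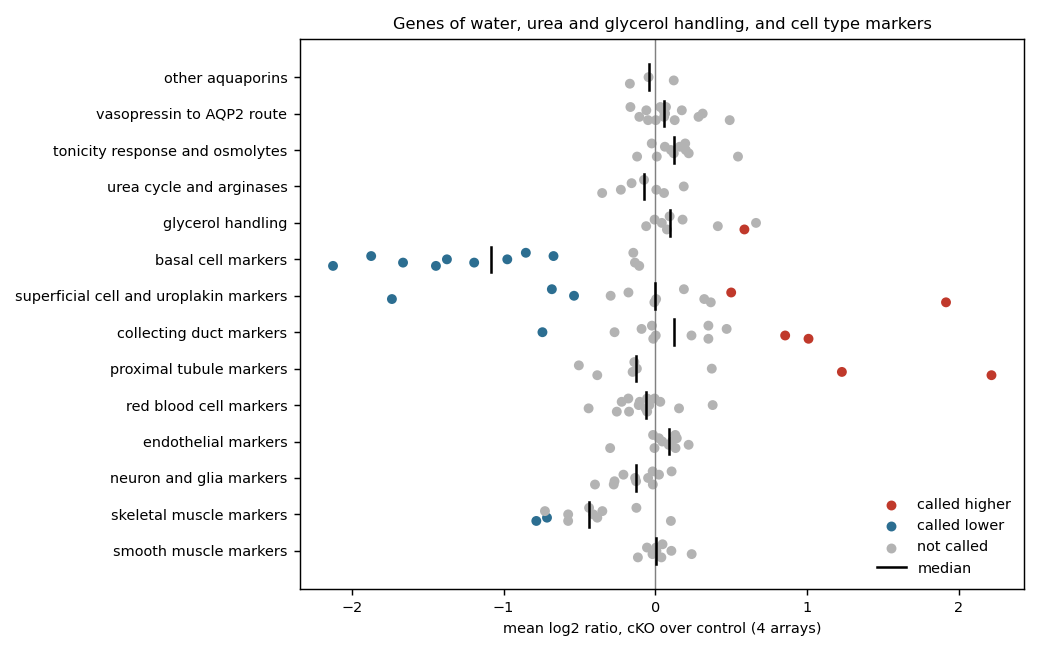
Log2 ratio of cKO over control (horizontal axis) of each kept gene in the lists of transport genes and of cell type markers, with the median of each list as a black bar and called genes in red (higher) or blue (lower). Basal cell markers, the targeted Trp63 among them, lie furthest below 0, with a median of -1.08, and the medians of the transport lists lie between -0.07 and 0.12.

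Markers of the cell types known to carry these channels are given beside them. Of 12 basal cell markers 9 were called lower and 0 higher, among them Krt5 at -1.87 ± 0.42 and Dapl1 at -2.12 ± 0.25. Trp63, the targeted gene, was 1 of the 9, at -1.37 ± 0.18, and its call is no independent evidence. The summed log2 level of the list spanned 15.22 to 15.43 for cKO, against 15.68 to 16.02 for control. The brightest gene in that sum was Itga6, at a mean of 14.74 for cKO and 14.88 for control, which was not called. The Slc14a1 ratio lay in the direction of the called basal markers, and the part of basal cell number in it was not tested. Of 15 red blood cell markers, the other known source of Slc14a1, 0 were called and 2 were lower at an unadjusted p under 0.05, with a summed log2 level of 18.73 to 18.94 for cKO, against 18.66 to 19.00 for control. Endothelial markers, a further source, had 0 of 11 called and 0 at an unadjusted p under 0.05, and their summed log2 level spanned 16.51 to 16.58 for cKO, against 16.35 to 16.48 for control.

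Collecting duct markers, of cells known to carry Aqp3, had 2 of 12 kept genes called higher, Tfcp2l1 at 1.01 ± 0.15 and Wnt9b at 0.86 ± 0.18, and 1 lower, Elf5 at -0.74 ± 0.24, and the median log2 ratio of the list was 0.12. At an unadjusted p under 0.05, 5 collecting duct markers were higher and 1 lower, against 3.53% and 4.02% of all kept probes. Their summed log2 level spanned 15.22 to 15.56 for cKO, against 15.09 to 15.31 for control. The brightest gene in that sum was Gata3, at a mean of 14.70 for cKO and 14.46 for control, which was not called. Of 12 superficial cell and uroplakin markers 2 were called higher, Krt20 at 1.92 ± 0.19 and Krt18 at 0.50 ± 0.14, and 3 lower, among them Upk3bl at -1.74 ± 0.18 and Upk2 at -0.54 ± 0.11, and the summed log2 level spanned 19.28 to 19.42 for cKO, against 19.13 to 19.34 for control. Krt18 and Upk2 were not called with the scanner software's processed signals (adjusted p = 0.0668 and 0.0695, limma) or with median centring (0.151 and 0.121). Without the intensity filter they were not called either (0.0710 and 0.0915). In each of these settings 1 marker was called in each direction. Both were also not called without replicate 1 or without replicate 3, and Upk2 was not called with the 8 RNAs as separate samples. At an unadjusted p under 0.05, 4 superficial cell and uroplakin markers were higher and 4 lower. Basal cell markers, 9 of 12 called lower with a median log2 ratio of -1.08, lay in the opposite direction to Aqp3. The part of basal, collecting duct and superficial cells in the Aqp3 ratio was not tested. Of 8 kept proximal tubule markers, a site of Aqp1, 2 were called higher, Cubn at 2.22 ± 0.28 and Pdzk1 at 1.23 ± 0.46, and the median log2 ratio of the list was -0.13. Of the other kept markers, Lrp2 stood at 0.37 and Fbp1, Slc22a6, Slc5a2, Slc34a1 and Hnf4a at -0.50 to -0.12, and none passed the test. Replicate 2 stood apart, with a list median of -0.80 against 0.25, -0.03 and 0.42 in replicates 1, 3 and 4. The summed log2 level of the list was 13.69 to 13.94 for cKO and 12.40 to 13.20 for control. The brightest genes of that sum in cKO were the called Pdzk1 and Cubn, at means of 12.57 and 12.29, against 11.34 and 10.08 in control. Aqp1 had its lowest ratio, -0.12, in replicate 2. At an unadjusted p under 0.05, 3 proximal tubule markers were higher and 1 lower. The part of proximal tubule cells in the Aqp1 ratio was not tested. Neuron and glia markers had 0 of 11 called with 2 lower at an unadjusted p under 0.05, and smooth muscle markers 0 of 9 called with 0 at that level. Without the intensity filter 4 basal cell markers were called lower, 1 collecting duct marker and 1 proximal tubule marker higher and 1 skeletal muscle marker lower, and Elf5, Wnt9b, Pdzk1 and Ckm were not called, and with the submitters' own values 0 genes of the 14 lists were called.

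The genes whose 4 log2 ratios lay nearest to those of Slc14a1, by Euclidean distance among 15958 genes, were Lypd3, Trim29, Pkp1, Zfp750 and Upk3bl, at distances of 0.356 to 0.555 log2. Pkp1 encodes a desmosomal plaque protein and Zfp750 a transcription factor of epidermal differentiation. Their mean log2 ratios were -1.86 ± 0.19 for Lypd3, -1.88 ± 0.12 for Trim29, -2.11 ± 0.29 for Pkp1, -1.86 ± 0.20 for Zfp750 and -1.74 ± 0.18 for Upk3bl. Only 14 genes lay within 1 log2 of Slc14a1. Around Aqp3, 2776 genes lay within the same distance, and the nearest were Muc4, Car2, B4galt6, Muc20 and Anxa11, at distances of 0.147 to 0.223. Muc4 and Muc20 encode membrane mucins and Car2 a carbonic anhydrase, and these genes stood at 0.53 ± 0.20, 0.48 ± 0.14 and 0.53 ± 0.25. None of the 5 passed the test (adjusted p = 0.0699 to 0.106, limma). Muc4 stood at 0.67 without background correction and at 1.26 with the scanner software's processed signals. Muc4 was not kept where both RNAs had to be well above background. As the genes of both sets were picked by their ratios, means near those of Slc14a1 or Aqp3 follow from the choice.

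**Figure D5:**
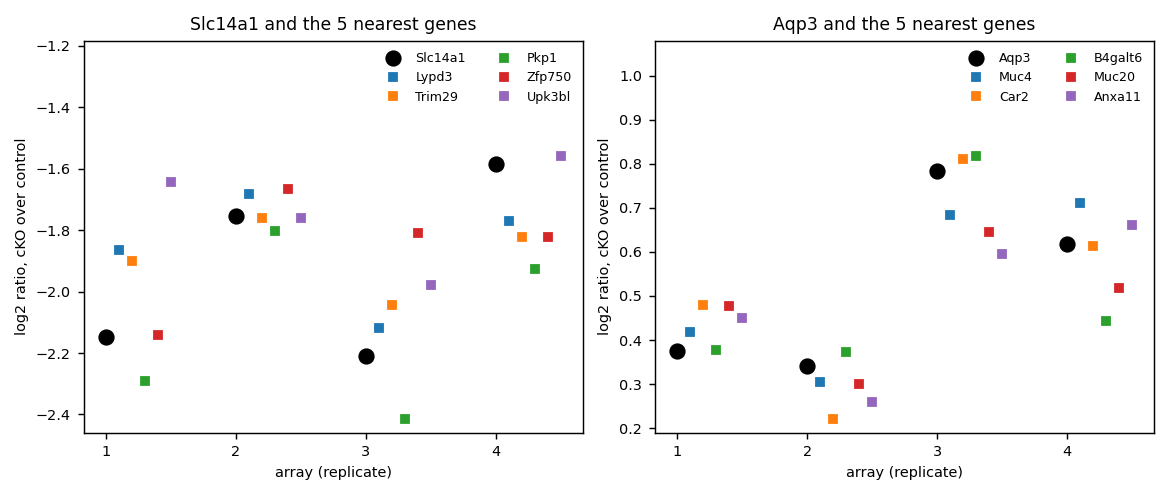
Log2 ratio of cKO over control (vertical axis) on each array (horizontal axis) for Slc14a1 and Aqp3 (black) and the 5 genes nearest to each (coloured, set slightly to the right). The genes near Slc14a1 average between -2.11 and -1.74, and those near Aqp3 between 0.48 and 0.53, which follows from picking them by their ratios.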

How the data were processed

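RNA of 4 cKO and 4 control samples was hybridised in pairs to 4 two-colour arrays, each labelled from 200 ng with 1 amplification round, per the labels' protocols. The authors deposited scanner files of spot intensity (mean signal and median local background per channel). Agilent Feature Extraction 10.7.3.1 made them, per the submitters' processing notes. Probe coordinates are in mm9, per the file headers. The deposited value table holds log2 ratios. Set against the ratio of processed signals, its nonzero values had slopes of 0.943 to 0.956, so cKO over control with the dye already turned. Of the table's values per array, 32.2% to 32.6% are exactly 0, for a reason not given in the sources used here.

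Background was corrected with normexp (offset 50), ratios were normalised by loess within arrays with control spots at weight 0, 17 to 33 nonuniform gene spots per array were left out, and each probe took the mean of its 4 spots. Kept probes had a share of 0.5 or more of their spots well above background in every cKO RNA or in every control RNA. The fit used limma 3.58.1 under R 4.3.3 (lmFit and eBayes, a coefficient for the dye), and two-sided p-values were adjusted by Benjamini-Hochberg over all kept probes. Levels are channel intensities after loess and Aquantile, open to dye bias. No probe's level is set against another's, except to pick the brightest. A summed log2 level is the log2 of a list's summed intensities and is weighted to its brightest genes. The array pairs the RNAs by construction. Errors are SDs over 4 arrays, and the small number of arrays limits the precision. The fit was tested on simulated data.

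The genes and lists were chosen with earlier results of these data known. The genes named by rule are all member probes, Trp63 and the 5 genes nearest to Slc14a1 and to Aqp3. Up to 4 called genes of a list by smallest p were added, or 2 as values where none was called. Aqp7, Itga6, Gata3, Lrp2, Fbp1, Slc22a6, Slc5a2, Slc34a1 and Hnf4a are also given, outside that rule. They were not compared with the alternatives. A gene of a list is represented by its brightest kept probe. Of the 39429 probes, 30385 carry a symbol of RefSeq (GRCm38.p6, used for names, order and promoters), 1343 were named through an accession and 7701 keep the file's name.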

Additional observations from a re-analysis of the deposited data

Results flagged for a closer look

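Of 30 sets of 4 values tested for a value far from the others, 2 had one, and chance gives about 1 in 20. The variant 1 probe of Slc14a2 (A_52_P198885) had a log2 ratio of 0.039 in replicate 1, while the other replicates lay between -0.26 and -0.23. The Aqp4 probe A_55_P2000369 had a log2 intensity of 7.80 in the cKO RNA of replicate 3, while the other cKO RNAs lay between 7.63 and 7.66.

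The Aqp2 ratio of cKO over control was above 0 in both males and below 0 in both females, a male minus female difference of 0.24 log2, which did not pass the test (adjusted p = 1.00, limma, 1 residual degree of freedom).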

How the results depend on the processing

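The Slc14a1 ratio was below 0 in all 15 alternatives run (-2.14 to -1.88) and called in 14, and the Aqp3 ratio was above 0 in all 15 (0.43 to 0.63) and called in 5. The count of probes called was 166 lower and 124 higher. It was 50 and 32 without the intensity filter, 304 and 219 without the dye term, and 340 and 262 with a sex term, and 2 member probes were called under each of the last 2. With the 8 RNAs as separate samples, without the replicate block that the array gives, 196 were called higher, and 264 of 445 calls were shared with the paired fit. With the deposited values, 0 member probes, 0 lower and 1 higher were called, and Slc14a1 had an adjusted p of 0.127. Basal cell markers called lower then numbered 0, and 4 without the filter. Leaving out 1 replicate gave 1 to 2 member probes, 176 to 964 lower and 148 to 1012 higher, with the most calls without replicate 4. These fits leave 1 residual degree of freedom, and the sex test could not be run on 3 arrays. Signs turned with median centring for Aqp1 (0.010) and the Trp63 probe A_55_P2161055 (0.030). Leaving out 1 replicate gave -0.10 to 0.053 for that Trp63 probe, above 0 without replicate 1 or 4, -0.14 to 0.032 for Aqp2, above 0 without replicate 2, and -0.033 to 0.28 for Aqp11, below 0 without replicate 4. The cause of these changes was not tested. Of 774 comparisons of probes named by rule with an alternative, 671 kept their direction and side of the threshold. Signal near background limits Aqp5. It also limits the variant 1 probe of Slc14a2, Aqp8 (mean levels of 6.80 for cKO and 6.96 for control) and Cps1 (6.82 and 7.05). With the scanner software's processed signals the last 3 had log2 ratios of -0.48, -0.41 and -0.59, and the Aqp4 probe A_55_P2031939 had -0.38. In the main fit these were -0.18, -0.17, -0.23 and -0.22, and none was called in either fit. Muc4 was not kept where both RNAs had to be well above background. Its ratio was 0.53 in the main fit and 1.26 with the processed signals.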
